A study of Mus musculus with 4 samples.

Results

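The nuclei described here were astrocytes of the mouse cortex, taken 21 days after photothrombotic (PT) injury, a focal lesion made by light activation of a dye in the blood. They came from the lesion and from the adjoining parenchyma, which were dissected apart and marked with separate multiplexing tags. A barcode was taken as an astrocyte when it held at least 757 unique molecular identifiers (UMIs, each standing for 1 captured transcript), at least 4 UMIs of Aqp4, Gja1, Aldh1l1 and Gfap together from at least 2 of these genes, and Aqp4 or Aldh1l1 among them. It could hold at most 1 UMI of Csf1r, Mog, Bnc2 and Flt1 together, genes of myeloid cells, oligodendrocytes, fibroblasts and endothelium, and at most 1 UMI of the neuronal genes Slc17a7, Gad1 and Gad2. Of 23489 barcodes in 4 matrices, 611 met this rule. The marker values were used to choose the nuclei, so the levels of these genes are given below as a description, with no test.

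Astrocytes clear glutamate and GABA from synapses, buffer potassium and water, feed neurons and line blood vessels with their end-feet. After a focal injury those near the lesion become reactive: they enlarge, raise intermediate filaments such as GFAP, alter their secreted matrix and cytokines, and form a border around the damaged core. Cortical grey matter astrocytes and those of white matter or the pial surface also differ from each other in uninjured brain.

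There were 2 sequencing libraries, each pooled from 1 female and 1 male mouse, and their ages are not given in the labels. All mice had PT injury and were examined at 21 dpi. The library labelled control had the genotype label WT. The study's controls for such strains were littermates, Cre-negative or heterozygous for the floxed gene, and in some experiments non-littermates. Which kind was used here was not stated. The library labelled Cxcl12-cKO had the genotype label Col1a2(creER); Cxcl12(flox), where an inducible Cre expressed in fibroblasts recombines a floxed Cxcl12 gene, which encodes a chemokine. For this strain the study describes tamoxifen, given in repeated courses from the day of injury, to induce the Cre. Astrocytes are not the cells in which this Cre is meant to act. With 1 library in each genotype, values of the libraries can be compared but the genotypes cannot be tested.

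Cxcl12 went against the genotype label. In lesional nuclei with fibroblast genes its level was 104 CPM (UMIs of the gene scaled to the summed UMIs of the nuclei) over 4085 control-labelled nuclei and 228 CPM over 3384 nuclei labelled Cxcl12-cKO. The counted reads lie near the 3′ end of transcripts, and which exons were floxed was not stated in the sources at hand, so these counts may not check the deletion. The name "library labelled Cxcl12-cKO" is used throughout for this reason. Across all barcodes over the UMI limit, the median was 2941 and 2923 UMIs in the lesion and 17068 and 17925 UMIs in the parenchyma, with the library labelled control first. This order holds wherever 2 values are given for a region. The libraries shared 47 barcode sequences, and no pair of them was an astrocyte in both.

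The library labelled control held 271 astrocytes among 8321 lesional barcodes over the UMI limit, a share of 3.26% (95% exact binomial interval 2.89% to 3.66%). The library labelled Cxcl12-cKO held 303 among 8169, or 3.71% (3.31% to 4.14%). The log2 ratio of these shares was 0.19 with a counting interval of -0.05 to 0.43, which spans 0, so no difference was detectable between the libraries. Without clusters 1, 2, 3 and 6, described below, it was 0.33 (0.04 to 0.63). In nuclei assigned to the female mice by Xist the log2 ratio had an interval of -0.36 to 0.36, and in those assigned to the male mice by Y-linked genes it was 0.41 (-0.04 to 0.86). In the parenchyma, 17 of 3228 barcodes (0.527%) and 20 of 3187 (0.628%) were astrocytes, a log2 ratio of 0.25 (-0.75 to 1.28). The parenchymal values below therefore rest on 37 nuclei. All intervals of counts and shares cover counting error only.

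Lesional astrocytes had a median of 3802 and 4411 UMIs per nucleus, and parenchymal ones 6267 and 5472 UMIs. In total they held 1181842 and 1518638 UMIs in the lesion and 102052 and 113607 UMIs in the parenchyma. The median share of mitochondrial UMIs was 0.0762% and 0.0918% in lesional astrocytes and 0.281% and 0.839% in parenchymal ones. Both depth and mitochondrial share thus moved with region. The part of depth in the differences between regions was examined only by thinning all nuclei to 757 UMIs, and that of mitochondrial share was not tested.

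Gfap, which encodes the intermediate filament of astrocytes, was at 1246 and 1312 CPM in lesional astrocytes and at 627 and 255 CPM in parenchymal ones. Aqp4, the water channel of the end-feet, was at 995 and 973 CPM in the lesion and 706 and 493 CPM in the parenchyma. Both were higher in the lesion in both libraries. Gja1, which encodes the gap junction protein connexin 43, lay the other way, at 192 and 121 CPM in the lesion and 402 and 370 CPM in the parenchyma. Aldh1l1, an enzyme of folate metabolism, was at 81.2 and 103 CPM in the lesion and 186 and 176 CPM in the parenchyma. The rule fixes that these genes are high here. All other nuclei held 1.07 to 34.5 CPM of Gfap and 1.33 to 26.4 CPM of Aqp4, but Gja1 was at 70.6 and 58.1 CPM in the other lesional nuclei as well.

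Thinned to 757 UMIs each, 58.3% and 56.4% of lesional astrocytes kept a Gfap UMI, against 29.4% and 15.0% of parenchymal ones. Before thinning these shares were 94.8%, 96.0%, 64.7% and 35.0%. Just outside the marker limit, with 3 marker UMIs, lay 46 lesional and 9 parenchymal barcodes, and just inside it, with 4, lay 46 and 6. Lesional barcodes just outside held 376 CPM of Gfap and 406 CPM of Aqp4, and those just inside 471 and 514 CPM. With 1 UMI of the other-type genes, 136 lesional and 7 parenchymal barcodes were inside, and with 2 UMIs 38 and 2 were outside.

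Some of the lesional nuclei carried genes of other cell types. Clustering of the 574 lesional astrocytes without the genes of the rule gave 7 clusters, numbered 0 to 6. Cluster 1 (26 nuclei) was led by Cfap299, Dnah12, Dnah6 and Tmem212, genes of motile cilia, and its ependymal marker sum was 4259 CPM. Cluster 6 (19 nuclei) was led by Atp6v0d2, Dock2 and Gpnmb, genes of macrophages and their lysosomes, and 31.6% of its nuclei held UMIs of both sexes, against 7.69% to 12.9% in the other clusters. Cluster 2 (69 nuclei) was led by Gjc3, Lhfpl3 and Erbb4 and held 123 CPM of Sox10, a transcription factor of the oligodendrocyte lineage, with 34.6 CPM of Gja1 and 491 CPM of the glutamate transporter Slc1a3, both the lowest of the clusters. These 3 clusters go against the astrocyte label. Cluster 3 (73 nuclei) was led by Brinp3, Apod, Cped1 and Gria1. Its oligodendrocyte precursor list summed to 1337 CPM, below the 4999.6 CPM of cluster 2 but above the 92.5 to 338 CPM of the other clusters, its fibroblast list to 459 CPM, and its Pdgfra level of 78.4 CPM was the highest of the 7. It also held 280 CPM of Gja1, the highest of the clusters, and 1524 CPM of Slc1a3. In the parenchyma of the library labelled control, 1 nucleus held 168 ependymal UMIs of 7985 and another 70 oligodendrocyte UMIs of 9774. Counts of genes are given below with and without these nuclei.

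To ask how astrocytes of the lesion differed from those of the parenchyma, UMIs were summed over the astrocytes of each matrix and tested with edgeR's quasi-likelihood test, with the library as a block. Of 5654 genes tested, 312 were higher (5.52%) and 356 lower (6.3%) in lesional astrocytes at an adjusted p under 0.05, or 668 in either direction (11.8%). The unadjusted p was under 0.05 for 1310 genes. The p-values rest on how far the difference between regions varied between 2 libraries that also differ in genotype. Without clusters 1 and 6 and the 2 parenchymal nuclei above, 426 genes were higher and 464 lower. Without cluster 2 as well, 372 were higher and 410 lower, and without cluster 3 too 434 and 456. Fold changes and medians given below without clusters 1, 2, 3 and 6 also leave out the 2 parenchymal nuclei. DESeq2 called 94 higher and 144 lower, and nuclei thinned to 757 UMIs gave 116 and 20. Thinning also moved the median log2 fold change of all genes tested from 0.03 to 0.50, and the values of thinned nuclei below are to be read against 0.50.

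Among the reactive astrocyte genes, more were called higher than lower in the lesion. Of 40 genes measured, 19 passed the filter of 30 CPM on average, and of these 9 were called higher and 1 lower, with a median log2 fold change of 1.53 against 0.03 over all genes tested. DESeq2 called 4 of them higher. Their summed level was 5084 and 6451 CPM in lesional astrocytes and 2332 and 1637 CPM in parenchymal ones. It rose in each mouse, from 2578 to 5334 and from 2085 to 4981 CPM in the control-labelled female and male and from 1332 to 5304 and from 2517 to 7694 CPM in the other pair. The lowest lesional value was above the highest parenchymal one.

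Cd44, a receptor of hyaluronan, had 548 and 736 CPM in lesional astrocytes and 88.2 and 79.2 CPM in parenchymal ones. Its log2 fold change was 2.81 (SE 0.37, adjusted p = 9.99e-06), and it held a UMI in 174 of 271 and 239 of 303 lesional nuclei but in 4 of 17 and 2 of 20 parenchymal ones. Cp, which encodes the copper-carrying ferroxidase ceruloplasmin, was at 1191 and 1775 CPM in the lesion and 265 and 290 CPM in the parenchyma (log2 fold change 2.27, SE 0.30). Signalling genes of this list followed. Osmr, the receptor subunit for oncostatin M, was at 258 and 354 CPM against 39.2 and 44.0 CPM (2.75, SE 0.43), and Stat3, the transcription factor activated by such cytokine receptors, was at 378 and 441 against 118 and 132 CPM (1.59, SE 0.34). S1pr3, a receptor of sphingosine-1-phosphate, was at 172 and 205 against 29.4 and 44.0 CPM (2.23, SE 0.48), and Fgf2, a growth factor, at 202 and 352 against 39.2 and 61.6 CPM (2.33, SE 0.42). C3, the central complement component, was at 266 and 311 against 68.6 and 114 CPM (1.53, SE 0.37), and the matrix glycoprotein gene Tnc at 221 and 417 against 88.2 and 123 CPM (1.45, SE 0.36). In each of these genes both lesional values were above both parenchymal ones, but the genes were taken from those called higher. Of all genes called higher, 96.5% were higher in the lesion in 4 mice, against 21.2% of all genes tested.

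The rest of the list did not move as one. Ptx3, a secreted pattern recognition protein, was at 67.7 and 73.8 CPM in the lesion and had 1 UMI in all parenchymal astrocytes, a ratio of 15.3 with a counting interval of 2.72 to 609. Mt1, a metal-binding metallothionein, was the gene called lower, at 309 and 234 against 529 and 387 CPM (-0.88, SE 0.28, adjusted p = 0.0438), and thinned nuclei gave 0.36. Vim, an intermediate filament of reactive astrocytes, was at 179 and 214 CPM in the lesion and 206 and 52.8 CPM in the parenchyma, which overlap (0.56, adjusted p = 0.543). Serpina3n, a serine protease inhibitor, was at 56.7 and 81.0 against 49.0 and 8.80 CPM (1.16, adjusted p = 0.321).

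**Figure D1:**
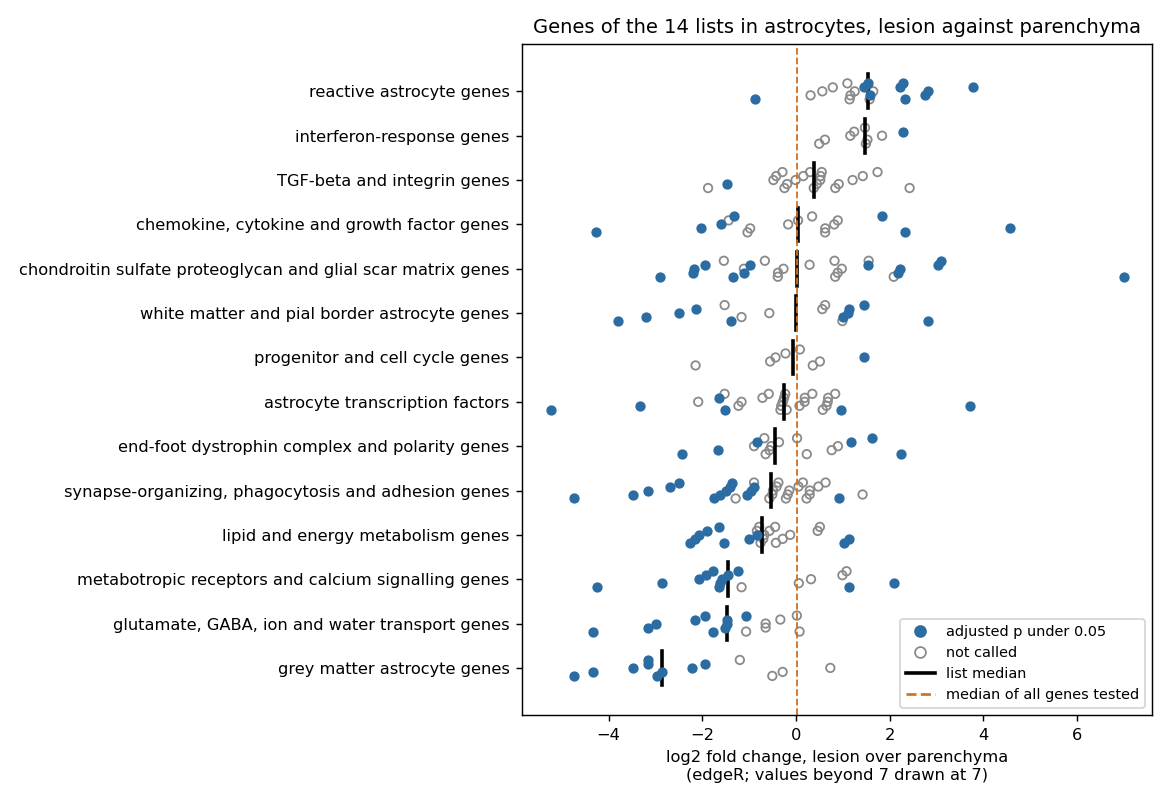
Log2 fold change of lesional over parenchymal astrocytes (x axis, edgeR) for each tested gene of 14 lists (y axis), with filled points for an adjusted p under 0.05, a bar at the list median and a dashed line at the median of all genes tested (0.03). The reactive list has 9 filled points on the right and 1 on the left, and the grey matter list at the bottom has 9 on the left and none on the right.

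Genes of the response to interferon had a similar median, 1.47, but 1 of 9 tested members was called. It was Ggta1, a galactosyltransferase, at 535 and 608 CPM in the lesion and 147 and 70.4 CPM in the parenchyma (2.30, SE 0.37). Gbp5, an interferon-induced GTPase, was at 117 and 148 against 58.8 and 26.4 CPM and missed the threshold (1.53, adjusted p = 0.0566). Summed over 31 measured members, the list was at 1620 and 1566 CPM in the lesion and 529 and 467 CPM in the parenchyma.

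Genes of grey matter astrocytes had the lowest median of the 14 lists. Of 17 measured and 13 tested, 9 were called lower in the lesion and 0 higher, with a median log2 fold change of -2.86, and the sum was 3511 and 2568 CPM in lesional against 15394 and 20659 CPM in parenchymal astrocytes. At an unadjusted p under 0.05 edgeR had 1 of them higher, and DESeq2 called 8 lower and 0 higher. In the 4 mice the parenchymal sums were between 12900 and 21936 CPM and the lesional ones between 2359 and 3193 CPM. Trpm3, a cation channel, was at 293 and 228 CPM in the lesion and 1783 and 1910 CPM in the parenchyma (-2.96, SE 0.28). Luzp2, a leucine zipper protein, was at 1062 and 972 against 3792 and 4903 CPM (-2.21, SE 0.27). These levels did not overlap between regions, but both genes were taken from those called lower. Of all genes called lower, 81.5% were lower in the lesion in 4 mice, against 10.8% of all genes tested.

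Gpc5, a glypican of the cell surface, showed the largest drop of the list, from 5527 and 8045 CPM in parenchymal astrocytes to 531 and 136 CPM in lesional ones. The lesional values of the libraries did not lie close together. Its log2 fold change was -4.74 (SE 0.69, adjusted p = 0.00912), and the call was lost in 4 of 19 alternatives, with adjusted p between 0.0557 and 0.35, while the fold change stayed between -5.23 and -4.05 in all 19. Mertk, a receptor through which astrocytes engulf synapses and debris, was at 266 and 90.2 CPM in the lesion and 1068 and 1514 CPM in the parenchyma (-3.15, SE 0.54).

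The genes that handle glutamate, GABA, ions and water were also lower, with 10 of 16 tested members called lower and 0 higher (median -1.47). None was higher at an unadjusted p under 0.05 with edgeR or DESeq2, and DESeq2 called 7 lower. Their sum was 7484 and 8345 CPM in lesional astrocytes and 16090 and 18432 CPM in parenchymal ones. Slc1a2, the main glutamate transporter of the forebrain, was at 2182 and 2209 CPM in the lesion and 8466 and 9533 CPM in the parenchyma (-2.16, SE 0.27, adjusted p = 5.87e-06). Slc1a3, the other astrocytic glutamate transporter, was at 2120 and 2841 against 2058 and 2218 CPM, a log2 fold change of 0.08 with an SE of 0.26 (adjusted p = 0.910). The regions overlapped for Slc1a3 and lay apart for Slc1a2.

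Other transporters fell with Slc1a2. Slc7a10, which carries serine and glycine, was at 10.2 and 13.2 CPM in the lesion and 176 and 264 CPM in the parenchyma (-4.34, SE 0.45), and Slc6a11, a GABA transporter, at 40.6 and 28.3 against 225 and 334 CPM (-3.16, SE 0.40). Slc7a11, which exchanges cystine for glutamate, was at 98.2 and 43.5 against 402 and 563 CPM (-2.99, SE 0.39). Glul, glutamine synthetase, was at 206 and 170 against 529 and 431 CPM (-1.48, SE 0.29). Kcnj10, the potassium channel Kir4.1, was at 69.4 and 79.0 against 127 and 88.0 CPM and was not called (-0.65, adjusted p = 0.430).

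**Figure D2:**
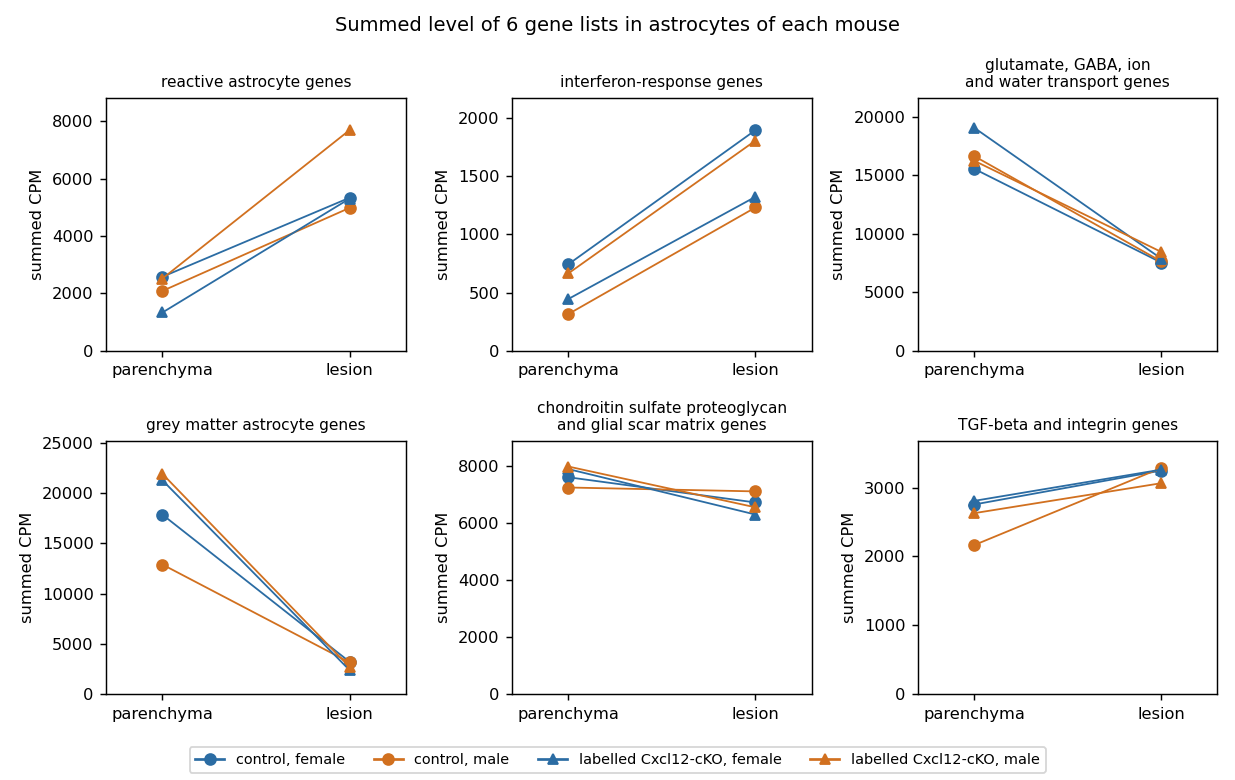
Summed CPM (y axis) of 6 gene lists in parenchymal and lesional astrocytes (x axis) of each mouse, with circles for the library labelled control, triangles for the library labelled Cxcl12-cKO and colours for female and male nuclei. The reactive and interferon lists go up and the grey matter and transport lists go down in all 4 mice.

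Receptors that couple synaptic activity to calcium in astrocytes showed the same lean, with 10 of 17 tested genes called lower and 2 higher (median -1.46). Grm3, a metabotropic glutamate receptor of mature astrocytes, was at 450 and 231 CPM in the lesion and 1842 and 2482 CPM in the parenchyma (-2.86, SE 0.34). Gabbr2, a subunit of the GABA-B receptor, was at 24.5 and 11.9 against 314 and 299 CPM (-4.25, SE 0.42). Grm5, the glutamate receptor known for its high level in young astrocytes, was one of those called higher, at 395 and 475 against 186 and 176 CPM (1.14, SE 0.32, adjusted p = 0.0181). The other was Prkca, protein kinase C alpha, at 1669 and 1445 against 333 and 334 CPM (2.09, SE 0.29).

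Most genes of the list of astrocyte transcription factors, which also holds Fos, Junb and Runx1, were not called. Of 27 tested, 2 were called higher and 4 lower, where 5.52% and 6.3% of all genes tested were called. The share of the list that was called was thus above the 11.8% of all genes. Its median was -0.25, with 0.15 in male nuclei and 0.52 in thinned nuclei, close to the 0.50 of all genes after thinning. Nfia, which specifies astrocytes, was at 2511 and 2544 CPM in the lesion and 2293 and 2113 CPM in the parenchyma (0.08, adjusted p = 0.911), and Sox9 at 89.7 and 73.1 against 118 and 61.6 CPM (-0.23, adjusted p = 0.833). Hes5 and Hes1, targets of Notch, were lower. Hes5 was at 6.77 and 0 CPM against 108 and 88.0 CPM (-5.24, SE 0.88), and Hes1 at 6.77 and 5.93 against 68.6 and 52.8 CPM (-3.34, SE 0.75). Rorb, a nuclear receptor, was at 764 and 532 against 1970 and 1672 CPM (-1.63, SE 0.26), and the call of Sox2 (-1.51, SE 0.42) turned to 0.82 in thinned nuclei. Runx1 was higher, at 239 and 292 against 19.6 and 17.6 CPM (3.71, SE 0.52), though other lesional nuclei held more of it, 350 and 488 CPM.

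Of 22 tested genes of lipid and energy metabolism, 8 were called lower and 2 higher (median -0.73). Apoe, the main lipid carrier that astrocytes secrete, was at 408 and 317 CPM in the lesion and 1391 and 1558 CPM in the parenchyma (-2.16, SE 0.27), and Clu, another secreted lipoprotein component, at 115 and 108 against 608 and 396 CPM (-2.27, SE 0.30). The genes called higher were Abca1, which exports cholesterol to lipoproteins, at 1605 and 1721 against 696 and 687 CPM (1.14, SE 0.27), and Gpam, an enzyme of triglyceride synthesis, at 1117 and 1248 against 578 and 493 CPM (1.02, SE 0.28).

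Genes of synapse organization and adhesion were called lower in 13 of 32 cases and higher in 1 (median -0.54). Lsamp, a cell adhesion protein of the limbic system, was at 2267 and 1812 CPM in the lesion and 10456 and 13714 CPM in the parenchyma (-2.69, SE 0.29). Sparcl1, a secreted synapse-promoting protein, was at 465 and 266 against 1107 and 1065 CPM (-1.75, SE 0.28). The gene called higher was the adhesion molecule Ncam2, at 1121 and 1182 against 529 and 590 CPM (0.92, SE 0.27).

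The matrix genes split. Of 26 tested genes of chondroitin sulfate proteoglycans and glial scar matrix, 6 were called higher and 7 lower. The median was 0.01, with -0.27 without cluster 2, -0.37 without clusters 1, 2, 3 and 6 and 1.18 in thinned nuclei, and the sum was 6822 and 6415 CPM in the lesion and 7437 and 7843 CPM in the parenchyma. Tnr, the matrix glycoprotein tenascin-R, was at 923 and 725 against 98.0 and 79.2 CPM (3.09, SE 0.36), but cluster 2 held the most of it, 1990 CPM, and cluster 3 held 1390 CPM. Sema3c, a secreted semaphorin, was at 235 and 259 against 19.6 and 35.2 CPM (3.03, SE 0.49), and Col4a6, a basement membrane collagen, at 454 and 480 against 137 and 52.8 CPM (2.22, SE 0.38). Among those lower, Bcan, the proteoglycan brevican, was at 157 and 118 against 421 and 537 CPM (-1.94, SE 0.30), and Ptn, the growth factor pleiotrophin, at 283 and 186 against 999 and 907 CPM (-2.17, SE 0.28). Ncan, neurocan, was at 71.1 and 64.5 against 127 and 141 CPM and missed the threshold (-1.11, adjusted p = 0.0959).

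The genes of TGF-beta signalling and integrins had 0 of 21 members called higher and 1 lower by edgeR at an adjusted p under 0.05 (median 0.38). At an unadjusted p under 0.05, edgeR had 5 higher and DESeq2 had 0. Itgb8 pairs with Itgav to form the integrin αvβ8, which activates latent TGF-beta. Itgb8 was at 232 and 242 CPM in the lesion and 206 and 150 CPM in the parenchyma (0.30, SE 0.33, adjusted p = 0.666), and Itgav at 223 and 261 against 118 and 211 CPM (0.45, SE 0.34, adjusted p = 0.488). For both genes the lesional values were above the parenchymal ones by less than the test could separate. Tgfbr2, a receptor subunit, was at 105 and 106 against 49.0 and 35.2 CPM (1.21, adjusted p = 0.158), and Tgfb2, a ligand, at 93.1 and 95.5 against 58.8 and 141 CPM (-0.19, adjusted p = 0.863). The gene called lower was Itgb5 (-1.48, SE 0.41), which thinned nuclei gave as 1.14.

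At the end-foot, 3 of 16 tested genes were called higher and 3 lower (median -0.44, turning to 0.02 in male nuclei and to 0.86 in thinned ones). Utrn, a homologue of dystrophin, was at 836 and 873 CPM in the lesion and 304 and 387 CPM in the parenchyma (1.19, SE 0.29), and Angpt1, a ligand that stabilizes vessels, at 999 and 1091 against 186 and 220 CPM (2.24, SE 0.31). Ndrg2 was at 107 and 93.5 against 421 and 572 CPM (-2.43, SE 0.30).

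Among 17 tested chemokines, cytokines and growth factors, 3 were called higher and 4 lower (median 0.04). Cxcl12 itself was at 107 and 140 CPM in lesional astrocytes, with a UMI in 67 of 271 and 110 of 303 nuclei, and had 1 UMI in all parenchymal ones. The ratio was 27 with a counting interval of 4.81 to 1069, and the adjusted p of edgeR was 0.00069. The call was lost with DESeq2 and in thinned nuclei, where the adjusted p of edgeR was 0.293. Other lesional nuclei held 57.6 and 124.6 CPM of Cxcl12 and other parenchymal nuclei 2.41 and 3.72 CPM. The regions thus differed in the same direction outside astrocytes. The part of free RNA in the UMIs of astrocytes was not tested. Il33, an alarmin of astrocyte and oligodendrocyte nuclei, was lower, at 1.69 and 7.90 against 68.6 and 96.8 CPM (-4.26, SE 0.74), and so was Il18 (-2.03, SE 0.36). Gli3 and Ptch1, which belong to the sonic hedgehog pathway, were at 313 and 396 against 794 and 819 CPM (-1.32, SE 0.27) and at 87.2 and 77.0 against 245 and 211 CPM (-1.60, SE 0.35).

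The remaining lists showed no common direction. Of 16 tested genes of white matter and pial border astrocytes, 5 were called higher and 5 lower (median 0.00). Of 8 tested progenitor and cell cycle genes, Tnc was called higher by edgeR and 0 lower (median -0.07), with 1 lower at an unadjusted p under 0.05 by edgeR and 0 by DESeq2.

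Across all genes, the calls with the largest changes and with levels at or above those of other nuclei gave a further view. Slco1a4, an organic anion transporter best known from brain endothelium, was at 155 and 313 CPM in lesional astrocytes and had 0 UMIs in parenchymal ones, so it was at least 17.5-fold higher against a floor of 3 UMIs. Other lesional nuclei held 21.1 and 21.1 CPM of it, and of 8 endothelial markers it was the only one that passed the filter. Has2, hyaluronan synthase, was at 60.1 and 74.4 CPM against 0 and 0 CPM (at least 4.90-fold), and so were Atp10a, a phospholipid flippase (70.2 and 85.6 CPM, at least 5.67-fold), and Clvs2, a clathrin vesicle protein (68.5 and 61.2 CPM, at least 4.63-fold). These 4 genes had no UMI in any of the 37 parenchymal nuclei. They therefore passed the filter of 30 CPM on average through their lesional levels alone.

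Lhfpl3 and Sgcz were also much higher. Lhfpl3, a gene known from oligodendrocyte precursors, was at 844 and 755 CPM against 0 and 35.2 CPM (5.30, SE 0.55), and its log2 fold change was 3.79 without cluster 2 and 2.92 without clusters 1, 2, 3 and 6. Sgcz, a sarcoglycan, was at 898 and 1448 against 58.8 and 70.4 CPM (4.05, SE 0.38). Ndst3, Cntn6, Gfpt2, Frmpd3 and Tcea3 had 1 parenchymal UMI each, and their ratios were 16.6 to 20.2 with lower bounds of 2.95 to 3.59. They too passed the filter mainly through their lesional levels. Ndst3 was at 233 and 224 CPM in clusters 2 and 3 and at 19.3 to 82.3 CPM in the others. Its log2 fold change was 4.20, and 3.25 without clusters 1, 2, 3 and 6. Cntn6 lay mostly in cluster 2, at 488 CPM, with 153 CPM in cluster 3 and 14.1 to 82.3 CPM in the others, and without cluster 2 it no longer passed the filter, and nor did Clvs2. Of the 12 named genes that were higher, DESeq2 gave 11 an adjusted p and kept the call of 2, Lhfpl3 and Sgcz. Thinned nuclei likewise kept these 2 of 11, so the calls of Slco1a4 and Cxcl12 were among those lost in both.

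Of the genes that were lower, Fam163a was at 1.69 and 0.658 CPM in the lesion and 147 and 106 CPM in the parenchyma (-6.72, SE 0.77), and Slc13a5, a citrate transporter, at 5.08 and 1.32 against 49.0 and 123 CPM (-4.87, SE 0.84). Dio2, which converts thyroid hormone to its active form, was at 51.6 and 18.4 against 470 and 625 CPM (-4.21, SE 0.43). St6galnac5, a sialyltransferase, was at 37.2 and 7.90 against 461 and 519 CPM (-4.77, SE 0.54). Wdr17 was at 166 and 115 against 2224 and 2289 CPM (-4.15, SE 0.30, adjusted p = 1.35e-09). Fjx1, Cyp4f15 and Cldn10 had log2 fold changes between -4.46 and -4.11. Of the 12 named genes that were lower, DESeq2 kept the call of all 12, and thinned nuclei kept 3 of the 11 with a value.

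**Figure D3:**
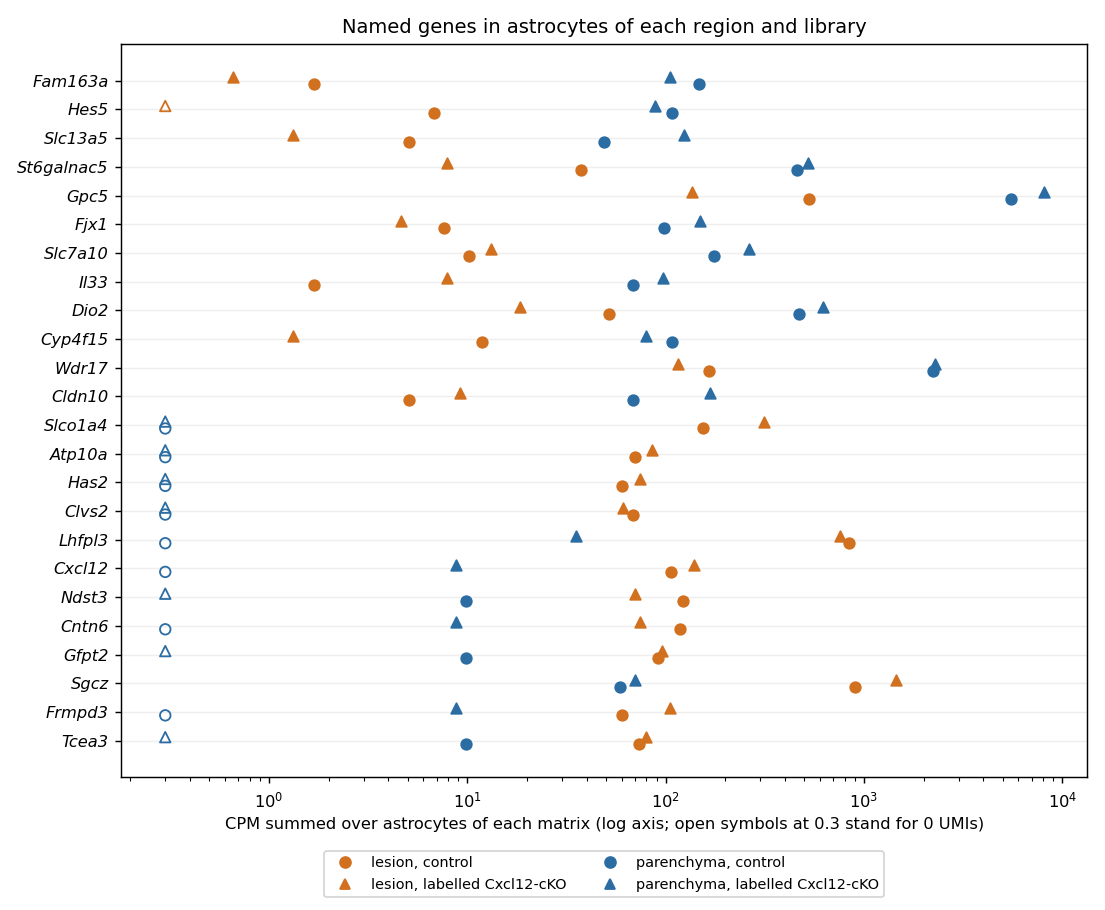
CPM (x axis, log scale) of the 24 named genes (y axis) in lesional (orange) and parenchymal (blue) astrocytes of the library labelled control (circles) and the library labelled Cxcl12-cKO (triangles), with open symbols for 0 UMIs. The regions do not overlap for any of these genes, which were chosen from those called.

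Markers of other cell types moved with region in part. The neuron list summed to 3031 and 2991 CPM in lesional and 1244 and 1338 CPM in parenchymal astrocytes, with 9 and 10 of 10 genes seen in the lesion and 9 and 9 in the parenchyma, and Kcnip4 called higher (1.74, SE 0.28). The myeloid list was at 665 and 483 against 255 and 273 CPM, with all 11 genes seen in the lesion and 6 and 8 in the parenchyma. Its called gene Gpnmb (1.86, adjusted p = 0.0241) had an adjusted p of 0.554 without clusters 1 and 6 and the 2 parenchymal nuclei, and of 0.00023 to 0.986 over all alternatives. The fibroblast list was at 375 and 214 against 157 and 123 CPM, the oligodendrocyte precursor list at 915 and 830 against 29.4 and 88.0 CPM, and the endothelial list at 173 and 322 against 9.80 and 17.6 CPM. Slco1a4 gave most of the endothelial sum, and the other 7 endothelial genes together were at 18.6 and 9.22 CPM in the lesion against 9.80 and 17.6 CPM. The ependymal list was at 517 and 689 against 1901 and 132 CPM and the oligodendrocyte list at 124 and 163 against 725 and 79.2 CPM, and the 2 parenchymal nuclei named above gave 168 and 70 of the UMIs of these lists. The mural list was at 143 and 115 against 78.4 and 282 CPM, and T cell markers were at 20.3 CPM or less in all 4 matrices. Their part in the differences between regions was not tested beyond the counts without those nuclei.

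The lesional astrocytes were not uniform. Cluster 4 (62 nuclei) was led by Gpc5, Slc7a11, St6galnac5 and Dio2 and lay nearest to the parenchymal astrocytes in the grey matter list, which summed to 7550 CPM against 18168 CPM in the parenchyma and 1846 to 4052 CPM in the other clusters. Its Slc1a2 level was 5222 CPM, with 620 to 2343 CPM in the other clusters and 9028 CPM in the parenchyma. Hes5 was at 30.8 CPM in cluster 4 and at 0 CPM in the other 6 clusters. This was only 8 UMIs in 4 nuclei, all of the library labelled control. Gfap was at 1118 CPM in it, within the range of the other clusters (887 to 1452 CPM) and above the 431 CPM of parenchymal astrocytes. Since the clusters were formed on these genes, other than Gfap, the differences are a description.

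At the other end, cluster 5 (86 nuclei) was led by Ptx3, Mmp3, Gbp5 and Has2. Its reactive gene sum was 10920 CPM, against 2598 CPM in cluster 4 and 3098 to 5741 CPM in the others. It held 3391 CPM of Cp, 1313 CPM of Cd44 and 255 CPM of Has2, and its interferon list was at 2505 CPM, the highest of the 7. Cluster 0 (239 nuclei), led by Sema3c and Sgcz, shared a high Slco1a4 level with cluster 5, 361 and 434 CPM, where the remaining clusters held 15.7 to 126 CPM. Cxcl12 was at 146 CPM in cluster 0, 161 CPM in cluster 3 and 180 CPM in cluster 5 but at 11.6 CPM in cluster 4.

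**Figure D4:**
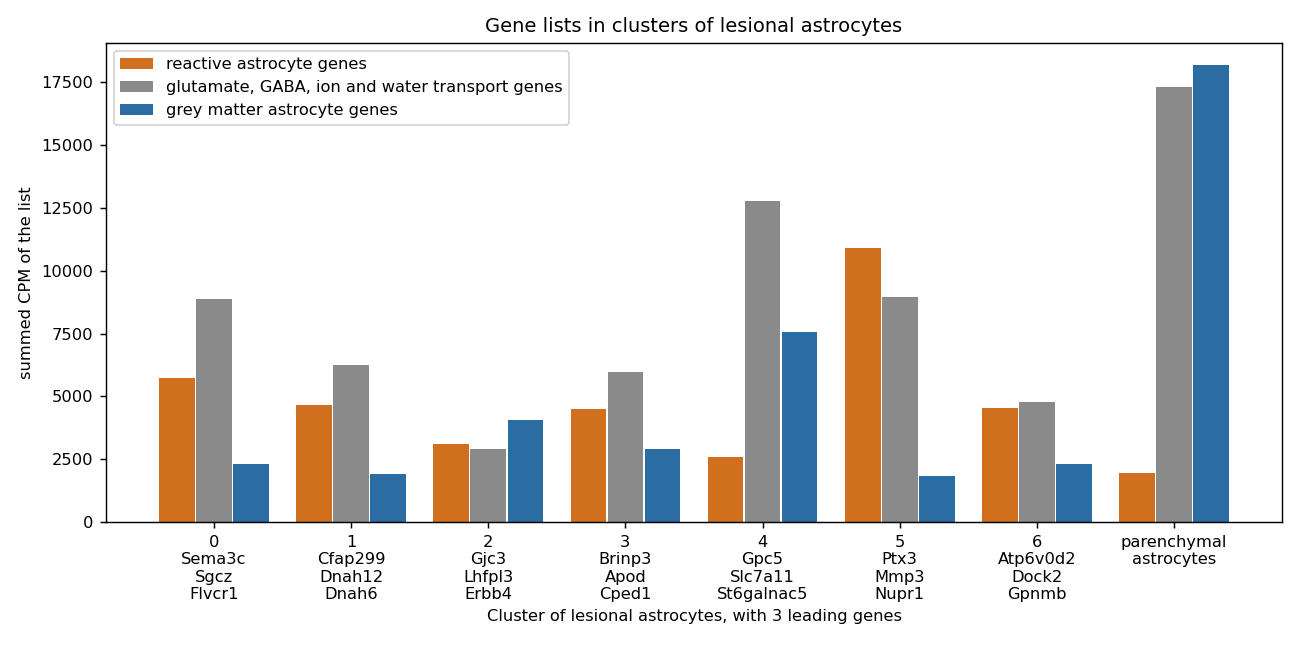
Summed CPM (y axis) of the reactive, transport and grey matter lists in 7 clusters of lesional astrocytes, named by number and 3 leading genes, and in all parenchymal astrocytes (x axis). Cluster 5 has the highest reactive sum (10920 CPM), and cluster 4 has the highest transport and grey matter sums of the lesional clusters, both below the parenchymal ones.

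The libraries differed in how many lesional astrocytes were of the Gpc5-led kind. Cluster 4 held 46 of 271 in the library labelled control, or 17.0% (12.7% to 22%), and 16 of 303 in the library labelled Cxcl12-cKO, or 5.28% (3.05% to 8.43%), a log2 ratio of -1.66 (counting interval -2.60 to -0.84). It was lower in the female nuclei, at 17.3% and 7.63%, and in the male nuclei, at 15.4% and 2.11%. Several of its leading genes differ between the libraries, so the clustering was run again without the 190 genes that led a cluster or were past a log2 ratio of 1 between the libraries. The matching cluster shared 60 nuclei with cluster 4 (Jaccard index 0.952) and held 17.0% and 4.95%. Other genes high in cluster 4, such as Slc1a2 and Trpm3, were not left out, so the second clustering was not independent of the first. Another measure moved with it: 2.82% of lesional barcodes of the library labelled control held at least 3 UMIs of Slc17a7, a gene of excitatory neurons, and 1.32% of the library labelled Cxcl12-cKO. This share was 2.95% and 2.23% in female and 3.12% and 0.705% in male nuclei. The share of barcodes with at least 3 UMIs of Gad1 and Gad2, genes of inhibitory neurons, was 1.25% and 1.03% over all, 1.47% and 1.64% in female and 1.36% and 0.509% in male nuclei, so it did not fall in both mice. The part of these neuronal barcodes in the share of cluster 4 was not tested, and library and genotype cannot be told apart.

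Gene by gene, lesional astrocytes of the 2 libraries were close. Among 7328 genes with at least 50 UMIs, 49 (0.669%) were higher and 71 (0.969%) lower in the library labelled Cxcl12-cKO by a log2 ratio of at least 1 in the same direction in female and male nuclei. The median log2 ratio was -0.02. These counts have no replicate check.

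The gene lowest in the library labelled Cxcl12-cKO by the naming rule was Gpc5, at 531 and 136 CPM, a log2 ratio of -1.96 (counting interval -2.20 to -1.73). The ratio was -1.76 in female and -1.07 in male nuclei, while in parenchymal astrocytes it was 0.54. It was -0.88 within cluster 4 and -0.91 in the other clusters together. Mertk had a ratio of -1.56, with 0.02 (-0.62 to 0.60) within cluster 4 and -1.66 in the other clusters. Other lesional nuclei held more Mertk than astrocytes, 297 and 406 CPM. Slc7a11 (-1.17), Gjb6 (-1.14), Dio2 (-1.47) and St6galnac5 (-2.19), which were lower in lesion than in parenchyma, were also past the limit in the library labelled Cxcl12-cKO. Of these, Slc7a11, Dio2 and St6galnac5 were high in cluster 4, which is smaller in that library. Outside it their ratios were -0.22 (-0.85 to 0.43), 0.26 (-0.76 to 1.38) and -0.20 (-1.78 to 1.48), with intervals that span 0. They rested there on 39 and 49, 13 and 23, and 7 and 9 UMIs. Like Gpc5, these genes led cluster 4 and were used to form it, so a split by this cluster cannot show what its share adds to the ratios. Gjb6 had -0.91 (-1.70 to -0.15) outside cluster 4. Within cluster 4 all 4 ratios were negative, from -0.72 for Slc7a11 to -1.72 for Dio2 and further for St6galnac5, but the Cxcl12-cKO side held 2 to 17 UMIs of each. Adamts16, Lrrc2, Man2c1os, Mir124-2hg, Zfp952 and Crispld2 followed, with ratios from -1.69 to -1.43 on 50 to 76 UMIs each.

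Among genes that were higher in the library labelled Cxcl12-cKO, Igfbp2, an insulin-like growth factor binding protein, was at 21.2 and 77.0 CPM in 20 and 70 nuclei (1.84, counting interval 1.23 to 2.55), with 1.24 in female and 2.45 in male nuclei. Mmp3, a matrix metalloproteinase, had 1 and 82 UMIs, but the 82 came from 10 nuclei (5.42, 3.48 to 11.32). Slco1a4 was at 155 and 313 CPM (1.01, 0.77 to 1.27). These 3 genes were highest in clusters that were larger in that library. Igfbp2 was at 158 CPM in cluster 5 and at 0 to 64.0 CPM in the others, Mmp3 led cluster 5, and Slco1a4 was highest in clusters 5 and 0. Cluster 5 held 11.4% and 18.2% of lesional astrocytes and cluster 0 held 35.4% and 47.2%. The part of these shares in the ratios was not tested. Samd14, Sec16b, Ube2z, Ccn2, Galnt17 and Tm4sf1 had ratios from 1.37 to 1.65 on 50 to 166 UMIs each. Cxcl12 had a ratio of 0.39 (0.06 to 0.72), which was -0.16 in female and 0.93 in male nuclei and was not called.

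Most functional lists stayed close between the libraries. The grey matter list was lower, with a log2 ratio of its sum of -0.45 (counting interval -0.51 to -0.39), at -0.44 in female and -0.23 in male nuclei, and it was 0.42 in the parenchyma. It was -0.33 (-0.48 to -0.17) within cluster 4 and -0.16 (-0.23 to -0.08) in the other clusters together, so the ratio over all nuclei also holds the different share of cluster 4. Gpc5, a gene of this list, led that cluster, so this split is a description. The reactive list was at 0.34 (0.30 to 0.39) over all nuclei, but at -0.01 (-0.08 to 0.06) in female and 0.63 (0.55 to 0.71) in male nuclei. Cluster 5, highest in this list, held 14.3% and 13.7% of female and 8.97% and 27.4% of male lesional astrocytes. Its part in these ratios was not tested. The metabotropic receptor list was at -0.24, the transport list at 0.16, which was 0.00 (-0.04 to 0.04) without clusters 1, 2, 3 and 6, and the progenitor list at 0.35, with its member Tnc at 221 and 417 CPM (0.92). Itgb8 was at 0.06 with an interval of -0.17 to 0.29, which spans 0. The remaining lists had ratios between -0.15 and 0.05.

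**Figure D5:**
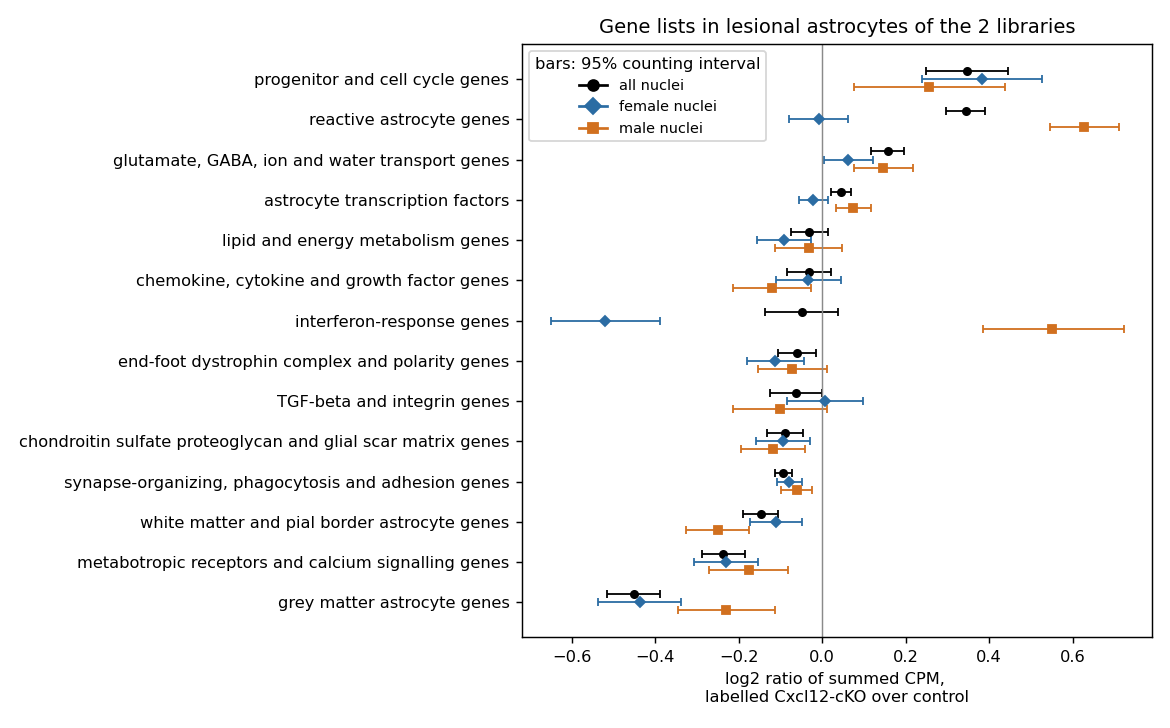
Log2 ratio of the summed CPM of 14 lists in lesional astrocytes, library labelled Cxcl12-cKO over library labelled control (x axis), for all nuclei (circles), female nuclei (diamonds) and male nuclei (squares), with 95% counting intervals. The grey matter list lies below 0 in all 3, and the reactive and interferon lists differ between female and male nuclei.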

How the data were processed

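Per the labels and the study's methods, DAPI-sorted nuclei were captured with Chromium 3′ v3.1 chemistry, and the authors ran Cell Ranger 9.0.0 on GRCm39 and split barcodes by region tag. They deposited 4 matrices of whole-number UMI counts for 33696 genes, with no normalization. The handling of intronic reads was not stated in the sources at hand.

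The lower limit of 757 UMIs was the 2.5 percentile over all barcodes. Counts were summed over the astrocytes of each matrix and scaled to CPM. The regions were compared with edgeR 4.0.16 (quasi-likelihood, TMM, library as block, mean of at least 30 CPM, genes of the rule left out, Benjamini-Hochberg over all genes tested). A gene could pass the filter on the mean through its level in 1 region alone. DESeq2 1.42.0 was an alternative. The libraries were compared by log2 ratios with exact counting intervals after adding 0.5 UMIs. Lesional astrocytes were clustered with scanpy 1.11.5 (2000 variable genes, 15 components, 15 neighbours, Leiden resolution 0.5). Scripts were tested on simulated data. No doublet caller was run, and 442 list genes (441 measured) formed 14 functional lists and 9 lists of other cell types. Some list genes are not reported here.

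The members and lists were chosen with earlier results of these data known. Named genes were list members, called ones with the largest change or the most UMIs, and the 12 genes in each direction (region) and 8 (libraries) with the largest change among those called and at or above the level of other nuclei, leaving out Gm, mt- and Rik symbols. Results were recomputed with 14 other settings, and with further ones chosen after seeing the data, that concerned the marker limits, depth, mouse, filters, normalization, block and clusters. Each genotype was 1 library. With the library as a block, the p-values rest on how far the difference between regions varied between these 2 libraries. This spread, which edgeR shares over genes, may be technical.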

Additional observations from a re-analysis of the deposited data

Results flagged for a closer look

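The summed interferon-response list moved in opposite directions between the libraries in the mice of each sex. In lesional astrocytes its log2 ratio, library labelled Cxcl12-cKO over library labelled control, was -0.52 in female nuclei (counting interval -0.65 to -0.39) and 0.55 in male nuclei (0.38 to 0.72). The sums were 1895 and 1323 CPM in the females and 1231 and 1805 CPM in the males. Of 15 members with at least 50 UMIs in these nuclei, 10 were lower in the female and higher in the male of the library labelled Cxcl12-cKO. Of all 7328 genes with at least 50 UMIs in lesional astrocytes, only 3675 had the same direction in female and male nuclei. The share of all genes that were lower in the female and higher in the male was not counted, so 10 of 15 may not be particular to this list. Gbp5, an interferon-induced GTPase, was at 141 and 73.8 CPM in the females and 34.7 and 207 CPM in the males. Each value is 1 mouse, so sex, mouse and genotype cannot be told apart. Cluster 5, highest in interferon sum, held 14.3% and 13.7% of lesional astrocytes in the females and 8.97% and 27.4% in the males. Neither the difference nor the part of cluster 5 in it was tested.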

How the results depend on the processing

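The number of genes higher in lesional astrocytes, 312, became 494 with a marker minimum of 3 UMIs, 87 with a minimum of 6 UMIs, 152 in male nuclei, 116 in thinned nuclei and 94 with DESeq2. The number lower, 356, became 126 with a minimum of 6 UMIs, 221 in female nuclei, 154 in male nuclei, 20 in thinned nuclei and 144 with DESeq2. The cause was not tested. The minimum of 6 UMIs, single-sex and thinned settings hold fewer nuclei or UMIs, while the minimum of 3 UMIs holds more nuclei and DESeq2 the same ones. The medians of 2 lists changed sign: astrocyte transcription factors to 0.15 (male) and 0.52 (thinned), end-foot genes to 0.022 (male) and 0.86 (thinned). Single genes that changed sign were Mt1 (0.36), Sox2 (0.82) and Itgb5 (1.14) in thinned nuclei and Vim (-0.10) in male nuclei. Slc1a3 did so at -0.075 with a marker minimum of 3 UMIs and -0.067 with no UMI of the other-type genes. Against the median of 0.50 over all genes in thinned nuclei, Mt1 stayed lower and the transcription factor median was close to 0.50. Without a library, Vim ranged from -0.23 (without the library labelled Cxcl12-cKO) to 1.91. Across all named genes and alternatives, 1307 regional fold changes kept direction and call, 160 lost the call and 7 changed sign. Removing the library block left 327 higher and 403 lower, and a block for each of the 4 mice gave 336 and 317. Regions were thus paired by library or by mouse, but between the genotypes no paired analysis was possible because each has 1 library. The number of nuclei limits the parenchymal side, with 17 and 20 astrocytes.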
